A study of Mus musculus with 8 samples.

Results

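Histone mRNA processing factors and histone genes were described in B16F0 exosomes and in B16F0 cells. The 10 genes were the processing and transcription factors Slbp, Lsm10, Lsm11, Npat, Casp8ap2, Zfp473 and Eri1 and the histone genes H1f2, H4c14 and H2bc21. They were chosen because Slbp had the lowest difference between exosomes and cells and Lsm11 was higher in exosomes. The comparison of exosomes with cells was therefore part of the choice, and for these genes it is given as a description with no test. Of the 10 genes, 9 had a transcript cluster, the array's unit for a gene, that carried that symbol alone, out of 14860 genes measured in this way. Npat was not analysed here.

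B16F0 is a pigmented melanoma cell line of the mouse, and exosomes are small vesicles that cells release with RNA and protein inside. The exosome group had 4 samples of RNA from exosomes isolated out of serum-free medium in which B16F0 cells had been kept for 24 h. The cell group had 4 samples of total RNA from parental B16F0 cells kept for 24 h without serum. Each sample was hybridised to 1 Affymetrix mouse exon array, with an equal mass of labelled cDNA per array. Neither group carried an altered allele or an added agent in the labels. Whether the 4 samples of a group were separate cultures is not stated in the labels, so each p-value reflects the spread among these samples alone, part of which may be technical.

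Most histone proteins are made while DNA is copied, from mRNAs that carry no poly(A) tail. These mRNAs end in a stem-loop, which the stem-loop binding protein SLBP holds from processing to translation and decay. The U7 small nuclear ribonucleoprotein, whose ring holds the Sm-like proteins Lsm10 and Lsm11, directs the cut behind the stem-loop. A whole-transcript array does not depend on a poly(A) tail, so it can measure such mRNAs as well as those of the processing factors, which have tails.

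The promoters of the gene that stood lowest in exosomes, of the one that stood higher, and of the linker histone gene H1f2 are shown because these 3 genes mark the range of what was seen. The sequences are from RefSeq, build GRCm38.p6, and run 5′ to 3′ from 250 bases before the annotated start to 50 after it. Slbp lies at chr5:33652525-33652824 on the minus strand, Lsm11 at chr11:45944886-45945185 on the minus strand and H1f2 at chr13:23738557-23738856 on the plus strand. Capitals mark matches, on both strands, of the CCAAT box, of the TATA-type letters TATAAA as well as TATATA, of the AAACACA box, and of E2F-type letters. The E2F-type letters searched were TTTGGCGC as well as TTTCCCGC, along with TTTGCCGC besides TTTCGCGC.
Slbp promoter: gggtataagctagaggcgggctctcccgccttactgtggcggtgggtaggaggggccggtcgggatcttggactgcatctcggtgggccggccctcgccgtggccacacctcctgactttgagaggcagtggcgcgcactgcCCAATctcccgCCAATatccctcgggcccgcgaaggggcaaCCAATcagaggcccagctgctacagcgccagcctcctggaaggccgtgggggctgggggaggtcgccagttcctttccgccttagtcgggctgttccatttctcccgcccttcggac
Lsm11 promoter: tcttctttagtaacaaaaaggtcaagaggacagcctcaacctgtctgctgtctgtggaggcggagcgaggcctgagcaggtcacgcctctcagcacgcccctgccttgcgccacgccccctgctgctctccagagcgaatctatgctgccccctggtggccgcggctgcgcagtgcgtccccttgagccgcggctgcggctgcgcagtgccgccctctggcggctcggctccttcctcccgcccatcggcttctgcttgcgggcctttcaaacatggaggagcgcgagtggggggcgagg
H1f2 promoter: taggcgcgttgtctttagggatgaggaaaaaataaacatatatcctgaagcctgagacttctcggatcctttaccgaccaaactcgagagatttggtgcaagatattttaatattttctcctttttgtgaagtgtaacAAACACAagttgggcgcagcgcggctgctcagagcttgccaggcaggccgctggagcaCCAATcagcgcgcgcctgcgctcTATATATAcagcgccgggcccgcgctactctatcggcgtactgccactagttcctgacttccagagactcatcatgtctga
The Slbp window held 3 CCAAT boxes, a motif of many promoters of growth and replication genes, and the Lsm11 window held none of the motifs searched. The H1f2 window held 1 CCAAT box, 2 overlapping TATATA matches and 1 AAACACA, the box known from promoters of H1 histone genes. Of the 10 genes, 7 had a promoter in the table and 6 of these had a window with CCAAT, a motif present in 37.4% of all 32851 promoters. TATATA was in 5.67% and AAACACA in 7.18% of all promoters, and in that of H1f2 alone among the 7 genes. The E2F-type letters were in 2.26% of all promoters and, of the 7 genes, in that of Casp8ap2. No window of the 7 genes held TATAAA, which was in 13.6% of all promoters. These matches describe the letters of the windows and say nothing of binding.

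Values are log2 expression values as deposited. They are relative to the RNA on each array, so fewer vesicles that carry a transcript and fewer copies in each vesicle cannot be told apart. Chemosensory receptor genes, 843 of them, stood in for background, and a gene was counted as above background on an array when it exceeded their 95th percentile there. This threshold averaged 6.49 ± 0.06 on exosome arrays and 5.74 ± 0.03 on cell arrays (SD, n = 4 each). The 75th percentile of all clusters was 7.13 ± 0.06 on exosome arrays and 8.53 ± 0.06 on cell arrays (SD, n = 4 each), so exosome arrays had a narrower range of signal. Precision is limited by the small number of arrays. Of 10 pigment cell markers 9 were measured, and all 9 were above background on every array of both groups. Of the markers of other cells, 0 of 5 leukocyte and 0 of 4 endothelial genes exceeded background on every cell array, beside 2 of 6 fibroblast genes and 1 of 4 epithelial genes.

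Slbp had log2 values of 2.20, 1.26, 0.91 and 0.91 on the exosome arrays, against 6.82, 6.51, 6.48 and 6.54 on the cell arrays. All exosome values lay far below all cell values. The mean difference was -5.26 ± 0.28 (SE, exosomes minus cells), rank 1 from the bottom among all genes and rank 2 among all 23332 transcript clusters. Slbp was not above background on any exosome array and was above it on all 4 cell arrays, so its fold is a bound. With the exosome background threshold in place of the dim signal, Slbp was at least 1.07-fold lower in exosomes. The size of the measured difference therefore lies almost wholly below the background threshold.

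The exosome values of Slbp were low even beside genes that stand in for background. Among the background genes, 8.42% lay below Slbp on exosome array 1, 0.119% on array 2 and 0% on arrays 3 and 4, against 98.6% to 99.6% on the cell arrays. The median background gene had a log2 value of 4.21 ± 0.08 in exosomes and 3.61 ± 0.05 in cells (SD, n = 4 each). On exosome arrays 3 and 4 Slbp thus lay close to the lowest value of the array, 0.84 and 0.82. In exosomes 558 clusters stayed at or below 2.20, the highest Slbp value there, on all 4 arrays. Of those 558, the number above background on all cell arrays was 1, Slbp itself. The cut of 2.20 is a value of Slbp, which was chosen by its low difference, so nothing is read from this count. The number of probes behind a cluster was not analysed here.

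**Figure D1:**
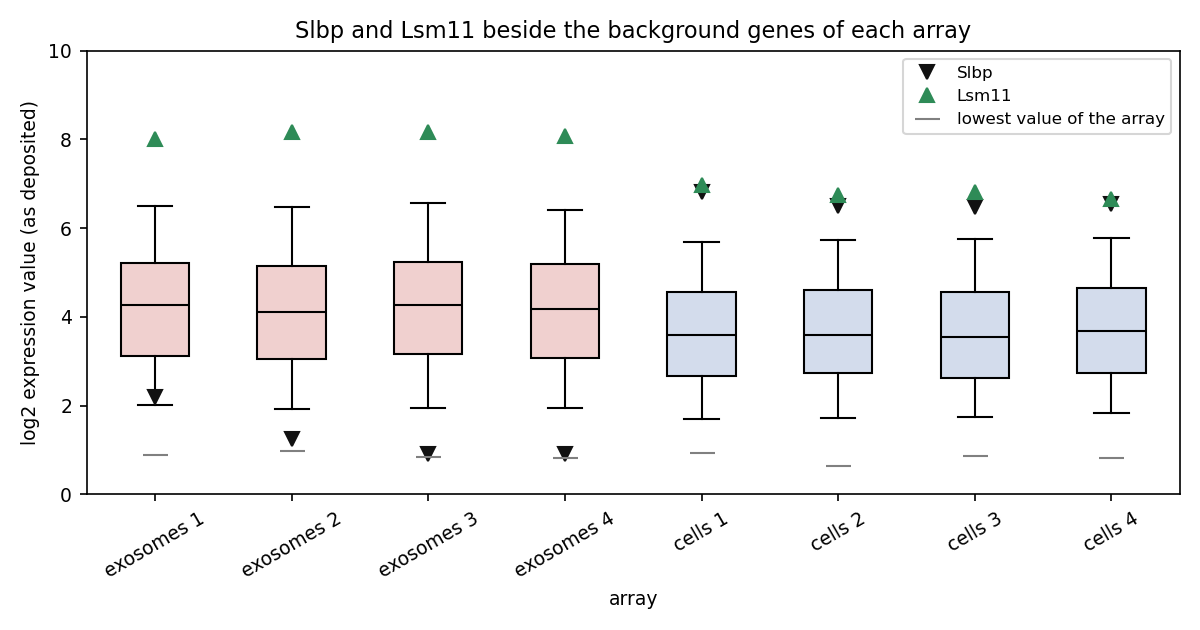
Log2 values of Slbp (downward triangles) and Lsm11 (upward triangles) on each array, exosome arrays on the left and cell arrays on the right. Boxes span the quartiles of the background genes with their median as a line, whiskers run from their 5th to their 95th percentile, and dashes mark the lowest value of the array. Slbp sits above the whiskers on the 4 cell arrays and close to or under their lower end on the exosome arrays, while Lsm11 is above the whiskers on all 8.

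Among named genes, those next to Slbp in the order of differences were Selenok (-5.10), Lgals3bp (-4.98), Tmed5 (-4.63), Supt4a (-4.56) and Pqlc3 (-4.53), all as log2 differences of exosomes minus cells. None is a histone mRNA factor. The genes nearest to Slbp over all 8 arrays were Mpp5, Ppp2r3a and Zfp758, at Euclidean distances of 3.35, 3.75 and 3.79 log2 units. The exosome means were 2.87, 3.04 and 2.42 for Mpp5, Ppp2r3a and Zfp758, and 1.32 for Slbp. Their cell means were 6.26, 6.23 and 5.20, and that of Slbp was 6.59, so all 3 lay above Slbp in exosomes and below it in cells.

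Lsm11, the U7 ring protein that also contacts Casp8ap2, was the only one of the 9 measured genes that was higher in exosomes. Lsm11 had log2 values of 8.00, 8.16, 8.18 and 8.09 on the exosome arrays, against 6.97, 6.76, 6.81 and 6.65 on the cell arrays. Every exosome value exceeded every cell value, and all 8 were above background. The mean difference was 1.31 ± 0.09 (SE), or 2.48-fold higher in exosomes, rank 216 from the top among 14860 genes. Within its array, Lsm11 lay between the 83.9th and the 85.3th percentile of all clusters on exosome arrays and between the 56.4th and the 58.5th on cell arrays. Of the background genes, 99.4% to 99.9% lay below Lsm11 on exosome arrays and 99.2% to 99.8% on cell arrays. The genes nearest to Lsm11 over the 8 arrays were Usp49, Per3 and Dennd11, at Euclidean distances of 0.27, 0.34 and 0.63 log2 units. A cell mean close to 6.8 and an exosome mean close to that of Lsm11 were shared by Usp49 and Per3, which had log2 differences of 1.39 and 1.13.

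Lsm10, the partner of Lsm11 in the U7 ring, stood the other way. Lsm10 had log2 values of 6.98, 6.59, 6.48 and 6.70 on the exosome arrays, against 8.53, 8.46, 8.55 and 8.42 on the cell arrays. All exosome values lay below all cell values, and 3 of 4 exosome arrays were above background. The mean difference was -1.80 ± 0.11 (SE), or 3.49-fold lower in exosomes. The other proteins of the ring are Sm proteins that U7 shares with spliceosomal particles, and of 5 such genes 1 was measured. That gene, Snrpd3, fell 3.98-fold (log2 difference -1.99 ± 0.09 SE, adjusted p by limma = 1.57e-07). The difference of Snrpd3 was -1.06 after quantile normalization and -0.76 after cyclic loess. Snrpd1, a spliceosomal Sm gene whose protein has no place in the U7 ring, had log2 means of 4.74 ± 0.25 in exosomes and 6.36 ± 0.22 in cells (SD, n = 4 each). Snrpd1 was called lower (limma adjusted p = 1.93e-05), with no fold given because its cell mean lies under the exosome background threshold.

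Casp8ap2, also called FLASH, binds Lsm11 and helps to bring the cutting enzyme to histone pre-mRNA at the histone locus body. Casp8ap2 had log2 values of 5.44, 5.08, 5.70 and 5.66 on the exosome arrays, against 7.48, 7.20, 7.36 and 7.40 on the cell arrays. The groups did not overlap, and no exosome array was above background while all cell arrays were. The difference was -1.89 ± 0.14 (SE), and the bound was at least 1.83-fold lower in exosomes. Zfp473, whose human counterpart binds the U7 particle and the complex of SLBP with the stem-loop, was not above background on any of the 8 arrays. Its log2 values were 4.99, 5.32, 4.98 and 5.26 on the exosome arrays, against 5.66, 5.27, 5.73 and 5.40 on the cell arrays. The groups overlapped, and no fold is given.

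Eri1, an exonuclease that trims and degrades histone mRNA at the stem-loop beside SLBP, had log2 values of 7.70, 7.83, 7.75 and 7.98 on the exosome arrays, against 9.28, 9.25, 9.31 and 9.44 on the cell arrays. The groups did not overlap and all 8 arrays were above background. Its difference was -1.51 ± 0.09 (SE), or 2.84-fold lower in exosomes. Of the proteins that hold the stem-loop, the transcript of SLBP was thus near the floor of the exosome arrays, while that of Eri1 remained above background there.

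The histone genes were all lower in exosomes, by unlike amounts. H1f2, a linker histone of the replication-dependent kind, had log2 values of 7.99, 8.63, 8.50 and 8.57 on the exosome arrays, against 11.94, 11.91, 11.91 and 11.99 on the cell arrays. The groups lay far apart, with a difference of -3.52 ± 0.14 (SE), or 11.4-fold lower in exosomes. H4c14, a histone H4 gene, had log2 values of 7.06, 8.01, 7.76 and 6.88 on the exosome arrays, against 9.35, 9.34, 9.44 and 8.84 on the cell arrays. Its exosome arrays spread more than those of the other genes above background (SD 0.54), and no exosome value reached a cell value. The difference of H4c14 was -1.82 ± 0.27 (SE), or 3.53-fold lower.

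H2bc21, a histone H2B gene, had log2 values of 5.66, 6.20, 5.87 and 5.62 on the exosome arrays, against 7.50, 7.20, 7.19 and 7.23 on the cell arrays. No exosome array was above background and all cell arrays were. The difference was -1.44 ± 0.14 (SE), and the bound on the deposited scale was at least 1.73-fold lower in exosomes. The H2bc21 difference was -0.73 after quantile normalization and -0.59 after cyclic loess, both smaller than that bound. Histone genes of one type have closely alike coding sequences, so a probe for 1 gene may also detect others, and the values of H4c14 and H2bc21 are uncertain in that respect.

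**Figure D2:**
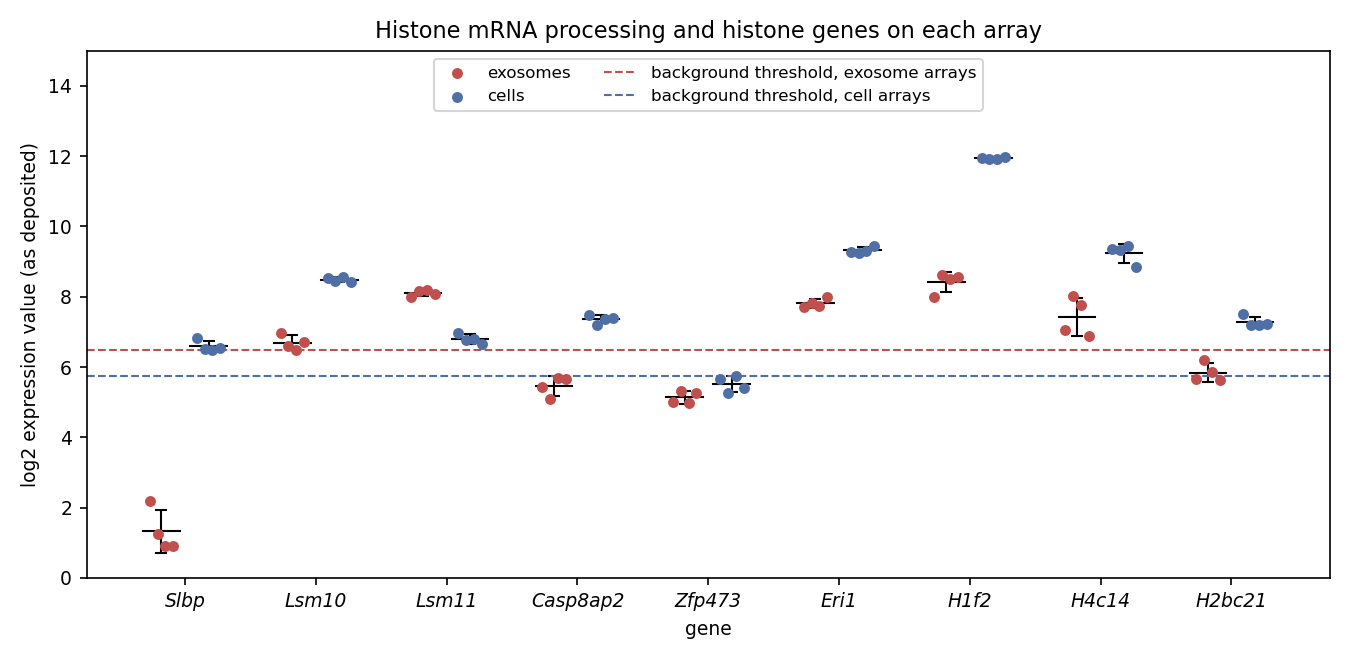
Log2 expression value of each of the 9 genes on every array, with exosome arrays in red on the left and cell arrays in blue on the right of each gene. Points are arrays, horizontal bars are means, error bars are SD (n = 4), and dashed lines are the mean background thresholds of 6.49 on exosome arrays and 5.74 on cell arrays. Slbp lies near the floor in exosomes, Lsm11 is the only gene whose exosome points lie above its cell points, and Zfp473 stays below both lines.

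Counted over the 9 measured genes, 4 were above background on all exosome arrays (Lsm11, Eri1, H1f2 and H4c14) and 8 on all cell arrays. For 7 of the 9 genes all exosome arrays lay below all cell arrays, as for 42.0% of clusters, and for 1 they lay above, as for 14.4%. Nothing is read from these counts, since the genes were chosen by this comparison. The median difference of the 9 genes was -1.80, beside -0.20 for all clusters and -1.30 for the 9168 genes detected above background in cells on all 4 arrays.

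The scaling of the arrays changed the sizes and no sign among the 9 genes. The median log2 difference of all clusters was -0.20 as deposited, 0.05 with quantile normalization, 0.03 with cyclic loess and -0.79 with arrays centred on background genes. Slbp was at -5.26, -4.96, -5.43 and -5.86 under these settings, so its difference relative to the median stayed between -5.46 and -5.01. Lsm11 was at 1.31, 2.31, 2.67 and 0.71, and H1f2 at -3.52, -2.57, -2.30 and -4.11. Both kept the same direction relative to the median. The lesser differences depended on the scale, as Eri1 was at -1.51 as deposited and at -0.05 after cyclic loess, close to the median. Lsm10 was at -0.47 and H4c14 at -0.48 after quantile normalization.

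**Figure D3:**
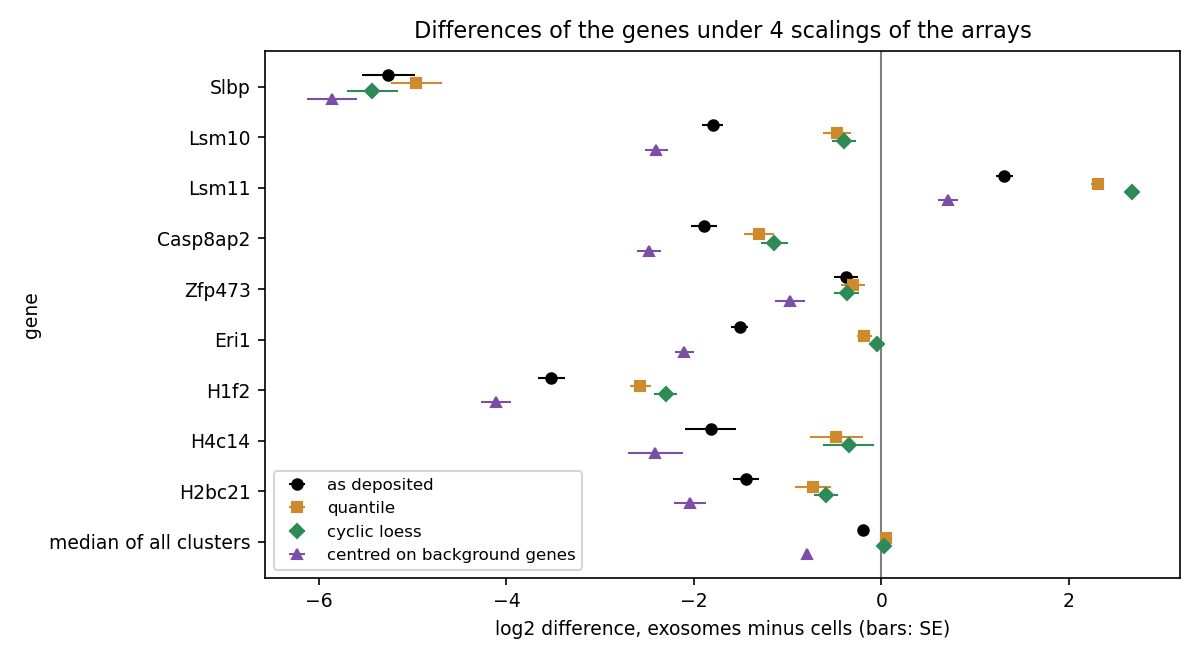
Log2 difference of exosomes minus cells for the 9 genes and the median of all clusters, under the deposited scale and under quantile normalization, cyclic loess and centring on background genes. Points are differences of means and bars are SE (4 arrays a group). Slbp lies between -5.86 and -4.96 under the 4 scales and Lsm11 to the right of 0, while Eri1, Lsm10 and H4c14 come close to 0 after quantile normalization and cyclic loess.

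The same comparison of exosomes with cells was made for other genes of histone mRNA metabolism, with 4 arrays in each group. Of 61 genes on 6 lists, 45 were measured, 40 fell, 2 rose and 3 were not called by limma at an adjusted p below 0.05, beside 42.9% of all clusters lower and 16.4% higher. All 45 exceeded the background threshold on every cell array, and among all genes that did so 7329 of 9168 were called lower. The shares were 88.9% and 79.9%, and the difference between them was not tested. The same 79.9% stands beside the count of each pathway list below, also without a test. The median difference of the 45 genes was -1.85, beside -1.30 for those detected genes. After quantile normalization 31 of the 45 were lower and 10 higher, after cyclic loess 30 and 13, and with arrays centred on background genes 42 and 1. The median differences of the 45 genes under these scalings were -0.79, -0.67 and -2.45, so the folds given below depend on the scale.

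The cleavage and cap-binding genes, a list that also held factors of polyadenylation such as Cpsf4, had 13 of 15 members measured, of which 12 fell and 1 rose. Cstf3, a cleavage stimulation factor subunit, was at least 6.64-fold lower on the deposited scale (log2 difference -3.25 ± 0.12 SE, adjusted p by limma = 7.6e-08). Its difference was -2.31 after quantile normalization and -1.85 after cyclic loess, both smaller than that bound. Cpsf2, a partner of the endonuclease in the histone cleavage complex, was lower, at log2 means of 6.39 ± 0.16 in exosomes and 8.90 ± 0.08 in cells (SD, n = 4 each, limma adjusted p = 8.26e-08). Only 1 of its 4 exosome arrays was above background, so no fold is given. Srrt, the cap-associated factor ARS2, fell 4.61-fold. Cpsf4, a zinc finger subunit that acts at polyadenylation signals, rose 1.34-fold (0.42 ± 0.06, adjusted p = 0.000398), and its difference was -0.17 after centring on background genes. Symplekin, the scaffold of the complex, is encoded by Sympk, which fell 1.65-fold and was named after its value was seen. Its log2 difference of -0.73 turned to 0.24 after quantile normalization and 0.54 after cyclic loess.

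Genes of histone transcription and of the histone locus body had 10 of 11 members measured, of which 9 fell and 1 rose. Cyclin E and its kinase activate Npat at the entry into S phase. The cyclin gene Ccne2 was at least 3.18-fold lower, and its relative Ccne1 fell 4.24-fold. The kinase gene Cdk2 fell 6.65-fold (log2 difference -2.73 ± 0.11 SE, adjusted p by limma = 8.86e-08). E2f1, a transcription factor of the same transition, was the gene that rose, by 3.75-fold (1.91 ± 0.08, adjusted p = 1.25e-07). E2f1 had log2 values of 11.63, 11.83, 11.74 and 11.76 on the exosome arrays, against 9.94, 9.72, 9.88 and 9.78 on the cell arrays. E2f1 was also higher under each other scaling, with differences from 1.31 to 3.00. The calls of this list depended on the scale, with 4 genes lower and 4 higher after quantile normalization and 4 lower and 5 higher after cyclic loess.

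Genes of histone mRNA translation and decay had 15 of 22 members measured, of which 13 fell and 2 were not called. Pnrc2, which links decay factors to decapping, fell 8.89-fold (log2 difference -3.15 ± 0.12 SE, adjusted p by limma = 7.36e-08). Dis3l2, an exonuclease for RNA tailed with uridine, was at least 4.65-fold lower on the deposited scale. The log2 difference of Dis3l2 was -2.63 as deposited, -1.57 after quantile normalization and -1.29 after cyclic loess. Lsm1, of the ring that binds tailed histone mRNA, was at least 1.77-fold lower. The 2 genes not called were Dcp1a and Lsm6, at log2 differences of -0.14 and 0.29. Dcp1a was at 1.18 and Lsm6 at 1.55 after quantile normalization, where the list had 11 genes lower and 2 higher, and after cyclic loess it had 10 lower and 4 higher. Of 6 genes tied to the turnover of SLBP protein in human cells, 5 were measured and 4 fell. On the deposited scale Cdk1, the mitotic kinase, fell 7.31-fold, Dcaf11, a ubiquitin ligase adaptor, fell 3.04-fold, and the cyclin F gene Ccnf was at least 1.99-fold lower. After quantile normalization the log2 differences of Cdk1, Dcaf11 and Ccnf were -1.84, -0.28 and -0.74. After cyclic loess they were -1.54, -0.22 and -0.58. Csnk2a1, a subunit of casein kinase, was not called at 0.24 and was at 1.39 after quantile normalization. After both quantile normalization and cyclic loess, 3 of these 5 genes were lower and 2 higher.

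Many other histone genes were dim on these arrays. Of 9 further replication-dependent histone genes with a symbol of their own, 2 fell, 1 rose and 6 were not called, and 3 of the 9 were above background on all cell arrays. Over all clusters 42.9% were lower and 16.4% higher. H1f3, another linker histone gene, was at least 1.21-fold lower (log2 difference -1.72 ± 0.15 SE, adjusted p by limma = 9e-06). H2bc18, a histone H2B gene above background on all 8 arrays, fell 1.16-fold (-0.21 ± 0.07, adjusted p = 0.0365), and its difference turned to 1.09 after quantile normalization and 1.20 after cyclic loess. The call of H2bc18 ended without exosome arrays 2, 3 or 4 or cell arrays 2 or 4 (limma adjusted p up to 0.0986). The rise was that of H2bc22, at log2 means of 4.54 ± 0.45 in exosomes and 3.77 ± 0.39 in cells (SD, n = 4 each), below background on every array. The call of H2bc22 ended without exosome arrays 2 or 4 or cell arrays 1, 2 or 3 (limma adjusted p up to 0.0886).

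A further 15 transcript clusters listed several histone genes each and no other gene, a group formed after the data were seen. Of these 10 were called lower and 0 higher by limma, with a median log2 difference of -1.27. Of the 15, 9 were above background on all cell arrays. The share lower was 66.7%, beside 42.9% of all clusters and 79.9% of genes above background on all cell arrays. No difference between these shares was tested. After quantile normalization 7 were lower and 2 higher. Clusters of 1 histone type did not move alike. An H4 cluster with log2 means of 11.77 ± 0.15 in exosomes and 13.48 ± 0.08 in cells (SD, n = 4 each) was lower by -1.70 ± 0.09 (SE, limma adjusted p = 4.87e-07). Another H4 cluster had means of 9.53 ± 0.04 in exosomes and 9.50 ± 0.12 in cells and was not called (adjusted p = 0.829). An H2B cluster had the lowest difference of the 15, at means of 3.95 ± 0.50 in exosomes and 8.34 ± 0.26 in cells. This H2B cluster was above background on 0 of 4 exosome arrays and on all 4 cell arrays, so no fold is given.

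Replacement histone genes, which are expressed outside DNA replication and mostly from mRNAs with a poly(A) tail, had 7 of 12 members measured, of which 4 fell and 3 were not called. Among all genes above background on every cell array, as these 7 were, 79.9% were lower. After quantile normalization 2 were lower and 3 higher. H2ax, the variant phosphorylated at DNA breaks, fell 4.22-fold (log2 difference -2.08 ± 0.12 SE, adjusted p by limma = 7.99e-07). Macroh2a1, a variant with a large added domain, fell 3.04-fold, and Cenpa, the centromere variant of H3, fell 2.19-fold. H2ax was at -0.87 and Macroh2a1 at -0.53 after quantile normalization, and at -0.66 and -0.26 after cyclic loess. Cenpa turned to 0.22 after quantile normalization and 0.33 after cyclic loess. H3f3a, H2aj and H1f10 were not called, at -0.20, -0.09 and 0.08.

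Histone chaperones and import factors, which receive newly made histones, had 19 of 23 members measured, of which 17 fell and 2 rose, with a median of -2.12. All 19 were above background on every cell array. The share lower was 89.5%, beside 79.9% among all genes above background on every cell array. The median of those genes was -1.30, and neither difference was tested. The calls were 13 lower and 6 higher after quantile normalization and 11 and 6 after cyclic loess. Nasp, a store of H3 and H4 that also binds linker histones, was at least 3.25-fold lower. Asf1a, which hands H3 and H4 to assembly factors, was at least 4.42-fold lower on the deposited scale. The log2 difference of Asf1a was -3.14 as deposited, -2.35 after quantile normalization and -1.95 after cyclic loess. Supt16, a subunit of the FACT complex, fell 7.23-fold (log2 difference -2.85 ± 0.10 SE, adjusted p by limma = 5.74e-08). Hira, the chaperone of the replacement histone H3.3, rose 1.42-fold (0.51 ± 0.07, adjusted p = 0.000347). Chaf1a, a subunit of the replication-coupled chaperone CAF-1, rose 1.20-fold (0.26 ± 0.09, adjusted p = 0.038) with overlapping groups. The call of Chaf1a ended without exosome arrays 2, 3 or 4 or cell arrays 2, 3 or 4 (limma adjusted p up to 0.0908). Both rises turned negative after centring on background genes, to -0.08 for Hira and -0.33 for Chaf1a.

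**Figure D4:**
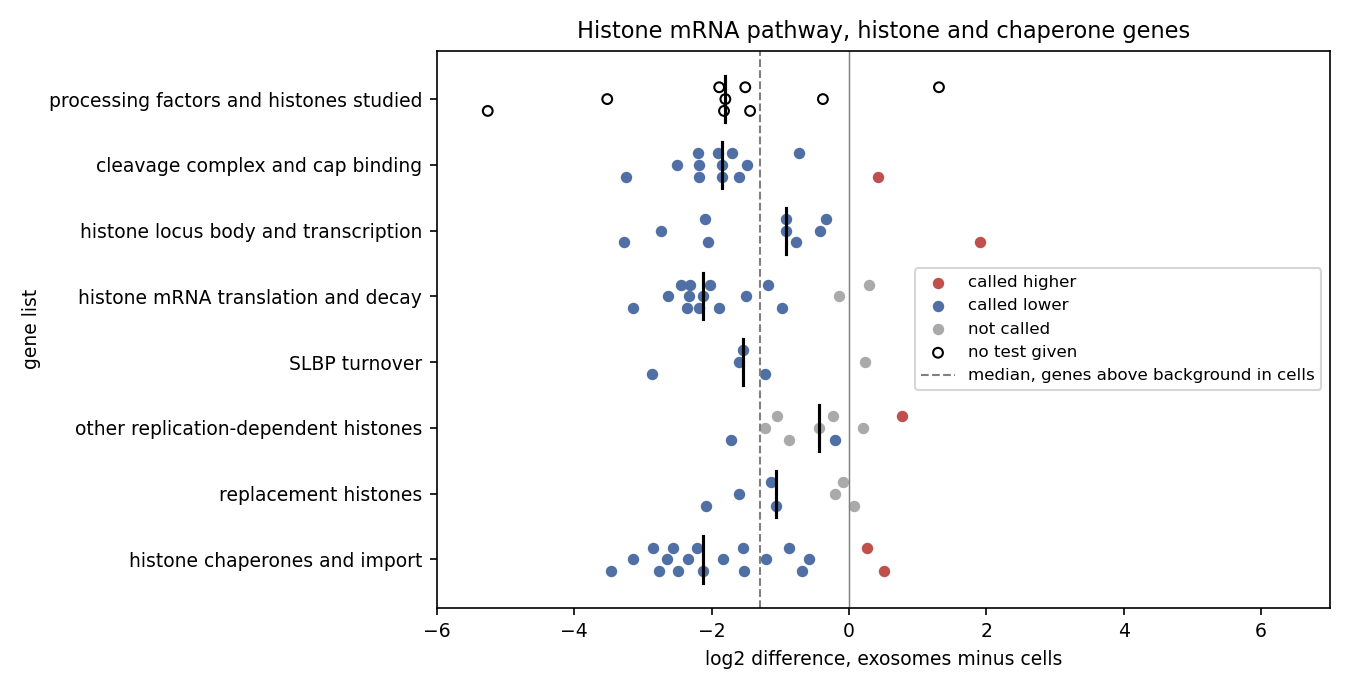
Log2 difference of exosomes minus cells for each gene of 8 lists, with the 9 genes described here as open circles at the top and called genes in blue (lower) or red (higher). Short bars are list medians and the dashed line is the median of -1.30 for genes detected above background in all cell samples, while the Sm genes Snrpd3 and Snrpd1 are not drawn. Slbp lies left of every other gene shown, and E2f1 and Lsm11 lie farthest to the right.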

How the data were processed

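Total RNA of 4 exosome and 4 cell samples was measured on exon arrays. The deposited values are log2 expression values for 23332 transcript clusters, made by the authors with Affymetrix Expression Console and RMA on genome build mm8, per the submitters' processing notes, with core probesets of a gene averaged, per the series text. No version is given in the sources used here. Clusters were named through the platform table: 14996 had 1 symbol, 1019 several and 7317 none. Where a gene had several clusters, the one with the highest mean stood for it.

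Groups were compared with limma 3.58.1 (R 4.3.3; lmFit, eBayes, two-sided, Benjamini-Hochberg over all clusters, calls at an adjusted p below 0.05). On simulated data of 23332 clusters with the layout of exosomes against cells, 23132 clusters were unshifted, of which 9 were called. Calls reached 30.0% of 50 clusters shifted by a log2 value of 0.5, 74.0% of 50 shifted by 1 and 92.0% of 50 shifted by 2. In the data 42.9% of clusters were called lower and 16.4% higher, so these rates do not carry over to the real fit. For a gene above background on all cell arrays and no exosome array, the fold is a bound, its cell mean against the mean exosome threshold. Folds are powers of 2 of mean log2 differences. Folds and bounds were computed on the deposited scale alone, and a bound need not hold under another scaling.

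The genes described and the lists were chosen with earlier results of these data known. Named genes were all members and, per list, the up to 3 largest falls above background in cells and up to 2 largest rises above background in exosomes, with further names marked or counted as few. They also include the 5 genes next to Slbp and the 3 nearest to Slbp and to Lsm11. Shared replicate numbers are not said to mark a shared culture, so the main fit used no pairing. Deviations of same-numbered arrays had correlations from -0.055 to 0.001 over all clusters. These values do not settle whether same-numbered samples shared a culture. No arrays held identical values. Alternatives were 3 scalings, a filter on dim signals, other variance settings, a replicate block, a stricter threshold, other background percentiles and leaving out each array.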

Additional observations from a re-analysis of the deposited data

Results flagged for a closer look

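In 4 of 70 groups of 4 arrays tested, 1 array stood apart from the other 3, where chance flags about 1 in 20. H4c14 had 8.84 on cell array 4, against 9.34 to 9.44 on the other cell arrays. H2bc21 had 7.50 on cell array 1, against 7.19 to 7.23 on the others. Macroh2a1 had 8.56 on exosome array 1, against 8.78 to 8.82 on the others. Hira had 9.39 on exosome array 4, against 9.26 to 9.27 on the others.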

How the results depend on the processing

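No sign among the 9 genes changed under any scaling or when any array was left out, where Slbp ranged from -5.56 to -5.13 and Lsm11 from 1.26 to 1.37. With the 90th percentile of background genes as threshold, 5 genes were above background on all exosome arrays and Slbp was at least 1.48-fold lower, and with the 99th 3 were, and Slbp had no bound. Scaling moved the counts of calls. Over all clusters, 6582 were lower and 6627 higher with quantile normalization, 6490 lower and 6799 higher with cyclic loess, and 16640 lower and 1061 higher when arrays were centred on background genes, against 10008 and 3818 as deposited. Higher clusters were 1479 with the dim filter and 2346 at an adjusted p below 0.01. Pathway genes called higher were 10, 13 and 1 under the 3 scalings, against 2. Other histone genes called lower were 3 after quantile normalization and 14 after centring, against 6, and those called higher were 4, 5 and 0 under the 3 scalings and 0 with the dim filter or the stricter threshold, against 1. Chaperones called lower were 11 after cyclic loess, against 17, and those called higher were 6, 6 and 0 under the 3 scalings and 1 at the stricter threshold, against 2. With the replicate number as a block 1 chaperone was called higher, 9811 clusters were lower and 3416 higher, and no exosome array correlated best with the cell array of its own number (0 of 4). With 1 array left out, lower calls were 9692 to 9904 for all clusters, 40 for pathway genes, 5 to 7 for other histone genes and 17 for chaperones, and higher calls were 3271 to 3602, 2 to 3, 0 to 1 and 1 to 2. The cause of these changes was not tested.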
